A study of Mus musculus with 12 samples.

Results

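The glycolysis and hypoxia response genes followed here are 34 gene names: enzymes that break glucose down to pyruvate and lactate, the regulators around them, the subunits of the hypoxia-inducible factor (HIF), its prolyl hydroxylases, and genes that low oxygen is known to induce. They were matched by name in the deposited table of 54532 genes, a rule that uses no measured value, although the names were listed with earlier results of these data known, and gave 35 genes, since Aldoa is listed under 2 identifiers. Of these 35, 34 passed the filter of at least 1 FPKM (sequenced fragments per length of gene and depth of library) in at least 4 of 12 libraries. The other, Eno2, the neuronal enolase, stood between 0.244 and 2.11 FPKM and was not tested.

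The RNA came from mammary tissue of FVB/N females that had become hyperplastic in the MIC model. MIC mice express a viral oncogene, polyoma middle T, and Cre recombinase when given doxycycline. All 12 libraries share this oncogene, the drinking water held doxycycline at 2 mg/ml, and each title bears 2 wk. The 4 WT libraries have no further label, the 4 Stat3 ko libraries are labelled as knockouts of Stat3, a transcription factor activated by cytokine receptors, and the 4 Chi3l1 ko libraries as knockouts of Chi3l1, a secreted chitinase-like protein. The labels name no ages, no alleles, no cells in which a gene was deleted and no litters or cultures. The p-values set differences between group means against the spread of samples within groups. What separates samples of a group is not given, so that spread may be technical. Libraries are numbered within a group as names only. The study is about Chi3l1, neutrophil extracellular traps and T cells in breast cancer, and how sugar metabolism differs between the 3 genotypes is the question followed here.

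In glycolysis hexokinase traps glucose in the cell, phosphofructokinase commits it to breakdown, aldolase splits the sugar, and pyruvate kinase makes pyruvate, which lactate dehydrogenase turns into lactate. Several of these steps have isoforms encoded by separate genes, with one typical of muscle and others of liver, brain or many tissues. HIF consists of an oxygen-sensitive alpha subunit and a stable partner: the prolyl hydroxylases mark the alpha subunit for destruction while oxygen is present, and in its absence HIF binds short promoter elements of many glycolysis genes. STAT3 and HIF are both active in many tumours, and both are known to bind promoters of metabolic genes.

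The targeted genes went with the labels, with Stat3 RNA reduced but still present in Stat3 ko. Stat3 stood at 46.2 to 49.7 FPKM in WT and at 12.2 to 18.7 in Stat3 ko. Chil1, the older symbol of Chi3l1, stood at 107 to 212 FPKM in WT, at 4.92 to 17.6 in Stat3 ko and at 0 to 0.0323 in Chi3l1 ko. The libraries held 16217143 to 22607123 counts, and genes of the mitochondrial genome took over 2% of counts in 3 of them, Stat3 ko 1 (4.79%), Stat3 ko 2 (3.37%) and Chi3l1 ko 2 (2.22%). The 21 luminal epithelial markers, which include 20 with a mean of at least 1 FPKM, summed to 2456 to 3848 FPKM in 10 libraries and to 1375 and 1509 in Stat3 ko 1 and Stat3 ko 2. The luminal markers of the labelled tissue were thus detected in every library.

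Markers of neighbouring tissue differed widely between libraries. The 19 skeletal muscle markers summed to 19, 3403, 1424 and 48.7 FPKM in WT 1 to 4, to 379, 12531, 67.4 and 7156 in Stat3 ko 1 to 4, and to 47.9, 10497, 322 and 1274 in Chi3l1 ko 1 to 4. The muscle level thus varied within every group, and the groups overlapped. The actin gene Acta1, for example, ran from 5.03 FPKM in WT 1 to 4759 in Stat3 ko 2. The 17 adipocyte markers summed to 289, 874, 476 and 506 FPKM in WT, to 14808, 2714, 1880 and 1543 in Stat3 ko, and to 439, 2588, 395 and 504 in Chi3l1 ko. Every Stat3 ko library was above every WT library in adipocyte markers, and Chi3l1 ko 2 stood within the Stat3 ko range. The adipocyte hormone gene Adipoq ran from 6.52 FPKM in WT 1 to 1001 in Stat3 ko 1. Neither list holds a member. T cell markers summed to 41 to 87.8 FPKM in WT, 46.4 to 81.4 in Chi3l1 ko and 117, 720, 388 and 81 in Stat3 ko 1 to 4. B and plasma cell markers summed to 74.9 to 852, 53.8 to 318, and 2108, 2928, 1349 and 127. The part of lymphocyte RNA in the members' values was not tested. In tissue RNA, fewer cells of a type and less RNA per cell cannot be told apart.

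Promoter sequences of 5 members that were called in a comparison are shown first, because the study targets a transcription factor and these genes share elements for another. They are RefSeq sequences on GRCm38.p6, from up to 250 bases before the transcription start and free of annotated UTRs. Capitals mark the core of a hypoxia response element, ACGTG or GCGTG on either strand (CACGT or CACGC in the strand shown), and the STAT site TTCNNNGAA. The windows are chr10:78009808-78010004 on the minus strand for Pfkl, the liver type of phosphofructokinase, and chr13:6648778-6649021 on the minus strand for Pfkp, its platelet type. The second annotated start of Aldoc, the brain-type aldolase, gave chr11:78323948-78324197 on the plus strand. The second start of Pfkfb3, which makes the activator of phosphofructokinase, gave chr2:11502102-11502340 on the minus strand. The first start of Pdk1, a kinase that shuts pyruvate out of the mitochondrial citrate cycle, gave chr2:71872974-71873223 on the plus strand.
Pfkl: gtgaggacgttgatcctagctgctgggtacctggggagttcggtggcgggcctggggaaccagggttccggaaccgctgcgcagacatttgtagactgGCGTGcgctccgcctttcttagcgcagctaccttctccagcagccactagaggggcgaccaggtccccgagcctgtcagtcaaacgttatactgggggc
Pfkp: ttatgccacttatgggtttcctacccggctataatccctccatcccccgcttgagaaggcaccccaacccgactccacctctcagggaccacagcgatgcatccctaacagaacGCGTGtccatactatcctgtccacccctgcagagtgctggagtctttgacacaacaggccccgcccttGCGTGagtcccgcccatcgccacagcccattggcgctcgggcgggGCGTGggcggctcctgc
Aldoc: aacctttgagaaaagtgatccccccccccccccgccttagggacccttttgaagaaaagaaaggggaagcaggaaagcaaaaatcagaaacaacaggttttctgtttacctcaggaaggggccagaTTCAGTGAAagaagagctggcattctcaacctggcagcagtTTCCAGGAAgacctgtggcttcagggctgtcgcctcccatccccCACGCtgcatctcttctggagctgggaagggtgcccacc
Pfkfb3: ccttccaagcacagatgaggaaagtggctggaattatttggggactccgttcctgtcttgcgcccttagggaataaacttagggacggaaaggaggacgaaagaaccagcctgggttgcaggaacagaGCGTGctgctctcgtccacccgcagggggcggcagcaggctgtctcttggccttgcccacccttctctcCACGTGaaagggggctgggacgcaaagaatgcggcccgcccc
Pdk1: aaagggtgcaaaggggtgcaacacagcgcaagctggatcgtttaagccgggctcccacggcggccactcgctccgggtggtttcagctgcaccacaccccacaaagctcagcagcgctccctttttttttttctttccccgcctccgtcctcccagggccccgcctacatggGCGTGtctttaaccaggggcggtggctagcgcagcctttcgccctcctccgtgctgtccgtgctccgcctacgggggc

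These 5 stretches were picked because each holds at least 1 hypoxia core, so that this is no finding. Pfkp and Pfkfb3 hold 3 each. Of the other starts of called members, read over whole windows of 250 bases, the second start of Pdk1, the first of Hk1 and the first of Pkm hold 0 cores, while the first starts of Aldoc and Pfkfb3 and the second of Pkm hold 1 each, within annotated UTRs. The second start of Hk1 holds 3. In Pfkfb3 a pair of them is the palindrome CACGTG, counted once per strand, which is also an E-box. Of the 34 names, 32 matched a RefSeq promoter, Ero1l under its symbol Ero1a, with 46 windows of 250 bases in all. Ndrg1 and Epas1 were not matched. A hypoxia core was found in 37 of the 46 windows (80.4%), against 38.6% of all 32851 promoter windows. The names were listed as glycolysis genes, many of them bound by HIF, and as genes that low oxygen induces. Their higher share is therefore no finding of these data. The windows are also not all separate, since some windows of Aldoa, of Pfkm and of Eno1 overlap and count the same cores again. The STAT site was found in 2 of the 46, the second start of Aldoc and the second of Pfkm, a lower share than the 7.02% of all windows. The Aldoc window held 2 such sites, starting 124 and 83 bases before the start, and 0.317% of all windows hold 2 or more. That window is 1 picked from the 46, so its 2 sites are no finding. A match of letters is a description of these windows, not of binding.

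Stat3 ko was compared with WT to ask which of these genes differ in the Stat3 knockout. Lower levels were found for Ndrg1, a stress gene that low oxygen induces, for the glycolytic isoforms Aldoc, Pfkl and Pfkp, for Pkm, the pyruvate kinase, and for Hk1, the hexokinase of most tissues. Higher levels were found for Pfkfb3 and Pdk1. By limma on log2(FPKM + 1), 6 of the 34 tested members fell (17.6%) and 2 rose (5.88%), against 8.39% and 5.61% of all 13643 tested genes. The share that rose was thus near the background. The members' median log2 fold change was 0.19, against −0.02 over all tested genes. Over all genes 766 were higher and 1145 lower, while edgeR on recovered counts gave 1323 higher and 1036 lower.

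**Figure D1:**
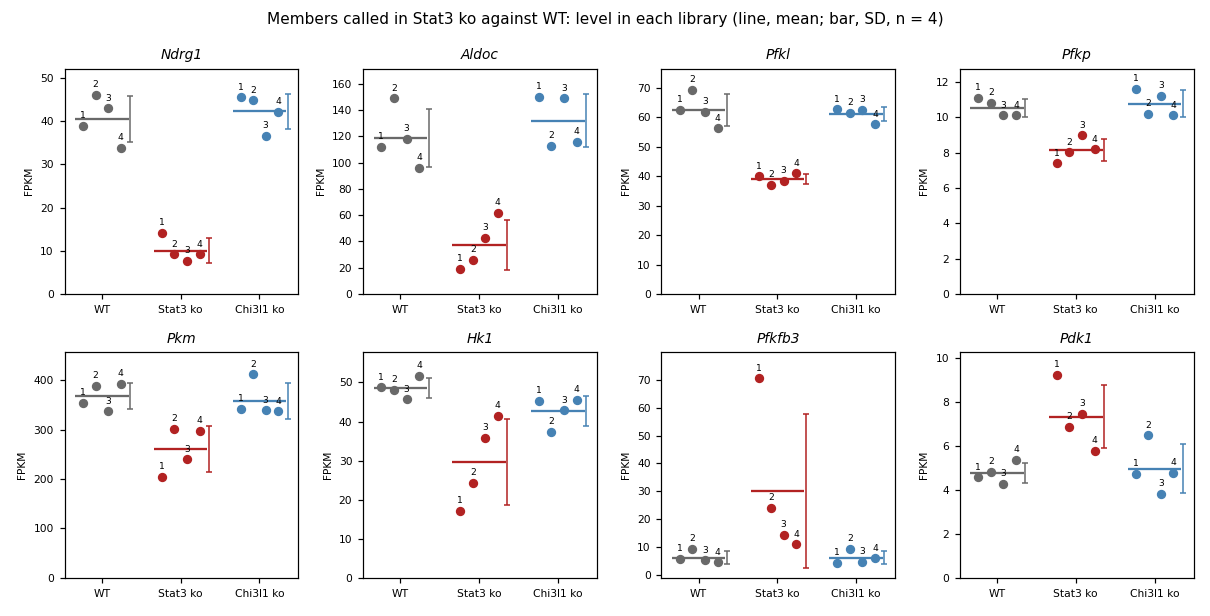
Level in FPKM (vertical axis, from 0 or just below) of the 8 members called in Stat3 ko against WT, in each of the 12 libraries. Points are libraries with their number, lines are group means and bars the SD of 4 libraries; for the 6 members that fell, all 4 Stat3 ko points lie under all WT points, and for Pfkfb3 and Pdk1 above them.

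Ndrg1 (ENSMUSG00000005125, GRCm38 chromosome 15, 66929318 to 66969640, minus strand) stood at 39, 46.2, 43 and 33.8 FPKM in WT 1 to 4. In Stat3 ko 1 to 4 it stood at 14.2, 9.23, 7.63 and 9.17 FPKM, and in Chi3l1 ko 1 to 4 at 45.6, 44.9, 36.7 and 42.2. All 4 Stat3 ko libraries were far below the other 8, with no overlap. The mean fell from 40.5 to 10.1 FPKM, or to 24.8% of WT, and the log2 fold change was −1.93 ± 0.16 (SE, limma adjusted p = 6.9e-05, n = 4 per group). The call held in each of 12 fits that left a library out.

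Aldoc (ENSMUSG00000017390, chromosome 11, 78322968 to 78327781, plus strand) stood at 112, 149, 118 and 96.2 FPKM in WT and at 150, 113, 149 and 116 in Chi3l1 ko. In Stat3 ko 1 to 4 it stood at 19.4, 25.8, 42.7 and 61.8 FPKM. The Stat3 ko libraries were again the lowest 4 of the 12, with a spread of their own. The lowest, Stat3 ko 1, had the highest adipocyte and the lowest luminal marker sum. The mean was 31.5% of WT, a log2 fold change of −1.76 ± 0.30 (limma adjusted p = 0.00563). With the adipocyte marker level in the fit it was −1.09 ± 0.31 and no longer called (adjusted p = 0.153).

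Pfkl (ENSMUSG00000020277, chromosome 10, 77986947 to 78010083, minus strand) was the most even of the falls. It stood at 62.4, 69.2, 61.7 and 56.2 FPKM in WT, at 39.9, 37.1, 38.4 and 40.9 in Stat3 ko, and at 62.6, 61.5, 62.5 and 57.5 in Chi3l1 ko. The 4 Stat3 ko libraries lay within 4 FPKM of each other. Their muscle and adipocyte levels differed many-fold, and all 4 had more adipocyte marker RNA than any WT library. Tissue make-up and genotype cannot be told apart in this fall. The log2 fold change was −0.66 ± 0.08 (limma adjusted p = 0.000639), and with the adipocyte level in the fit it was −0.67 ± 0.11 (adjusted p = 0.0127).

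Pfkp (chromosome 13, 6579768 to 6648777, minus strand) moved less. Its levels were 11.1, 10.8, 10.1 and 10.1 FPKM in WT and 7.4, 8.02, 8.97 and 8.19 in Stat3 ko, a log2 fold change of −0.34 ± 0.08 (limma adjusted p = 0.0184). The groups did not overlap, but the call ended without WT 1 (adjusted p = 0.0669) and with the adipocyte level in the fit (0.318). Of the 50-base words of its transcripts, 5.1% also occur in Pitrm1.

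Pkm, which makes pyruvate, stood at 354, 388, 337 and 392 FPKM in WT and at 204, 302, 240 and 297 in Stat3 ko. All Stat3 ko values were below all WT values, and the log2 fold change was −0.51 ± 0.14 (limma adjusted p = 0.0342). This call ended without any 1 of the WT libraries, Stat3 ko 3, Chi3l1 ko 1 or Chi3l1 ko 3 (adjusted p 0.0505 to 0.0918), and with the adipocyte level in the fit (0.357). Of its transcripts' 50-base words 25.8% occur in other annotated genes, so part of its reads may not be assignable to it alone.

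Hexokinase 1 fell while its inducible relative did not. Hk1 stood at 48.8, 48.1, 45.7 and 51.7 FPKM in WT and at 17.1, 24.3, 35.8 and 41.4 in Stat3 ko, without overlap, a log2 fold change of −0.77 ± 0.22 (limma adjusted p = 0.0393). Hk2, the form that insulin and low oxygen are known to induce, stood at 6.61, 8.2, 6.1 and 7.32 FPKM in WT. In Stat3 ko it stood at 22.9, 22.8, 9.5 and 9.92 FPKM, without overlap. Its log2 fold change of 0.99 ± 0.39 was not called by limma (adjusted p = 0.0977), but DESeq2 called Hk2 higher. With Chi3l1 ko 2 left out limma called it too (adjusted p = 0.039). The sum of both was 51.8 to 59 FPKM in WT and 40 to 51.3 in Stat3 ko. Of this sum Hk2 made up 11.8% to 14.6% in WT, 57.2% and 48.4% in Stat3 ko 1 and Stat3 ko 2, and 36.5% in Chi3l1 ko 2, the 3 libraries with the highest adipocyte level. With the adipocyte level in the fit the values were −0.21 ± 0.18 for Hk1 and −0.02 ± 0.32 for Hk2 (adjusted p = 0.705 and 0.988). The Hk1 call ended without any 1 of the WT libraries, Stat3 ko 2, Chi3l1 ko 1, Chi3l1 ko 3 or Chi3l1 ko 4 (0.0558 to 0.0998).

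Pfkfb3, whose product raises the sugar bisphosphate that activates phosphofructokinase, stood at 5.77, 9.38, 5.18 and 4.53 FPKM in WT. In Stat3 ko 1 to 4 it stood at 70.6, 24, 14.3 and 11 FPKM, and in Chi3l1 ko 1 to 4 at 4.28, 9.42, 4.67 and 5.89. The groups did not overlap, but Stat3 ko 1 alone was several-fold above the rest. The log2 fold change was 1.77 ± 0.47 (limma adjusted p = 0.033). It was 0.39 ± 0.29 with the adipocyte level in the fit (adjusted p = 0.632), and the call was lost when Stat3 ko 2, WT 1, WT 3 or WT 4 was left out (0.0713 to 0.0893). Its relative Pfkfb4 stood at 0.858 to 1.73 FPKM in WT and 1.69 to 3.34 in Stat3 ko. The fold change of 0.67 ± 0.23 was not called by limma (adjusted p = 0.0724), but DESeq2 called Pfkfb4. With Chi3l1 ko 2 or Stat3 ko 3 left out limma called it too (adjusted p = 0.0366 and 0.0449).

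Pdk1 stood at 4.57, 4.82, 4.27 and 5.35 FPKM in WT and at 9.22, 6.87, 7.46 and 5.78 in Stat3 ko. All Stat3 ko values were above all WT values, and the log2 fold change was 0.52 ± 0.15 (limma adjusted p = 0.0403). The call ended without any 1 of the WT libraries, Stat3 ko 1, 2 or 3, or Chi3l1 ko 1 or 4 (0.0575 to 0.108), and the value was 0.13 ± 0.12 with the adipocyte level in the fit (0.725).

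**Figure D2:**
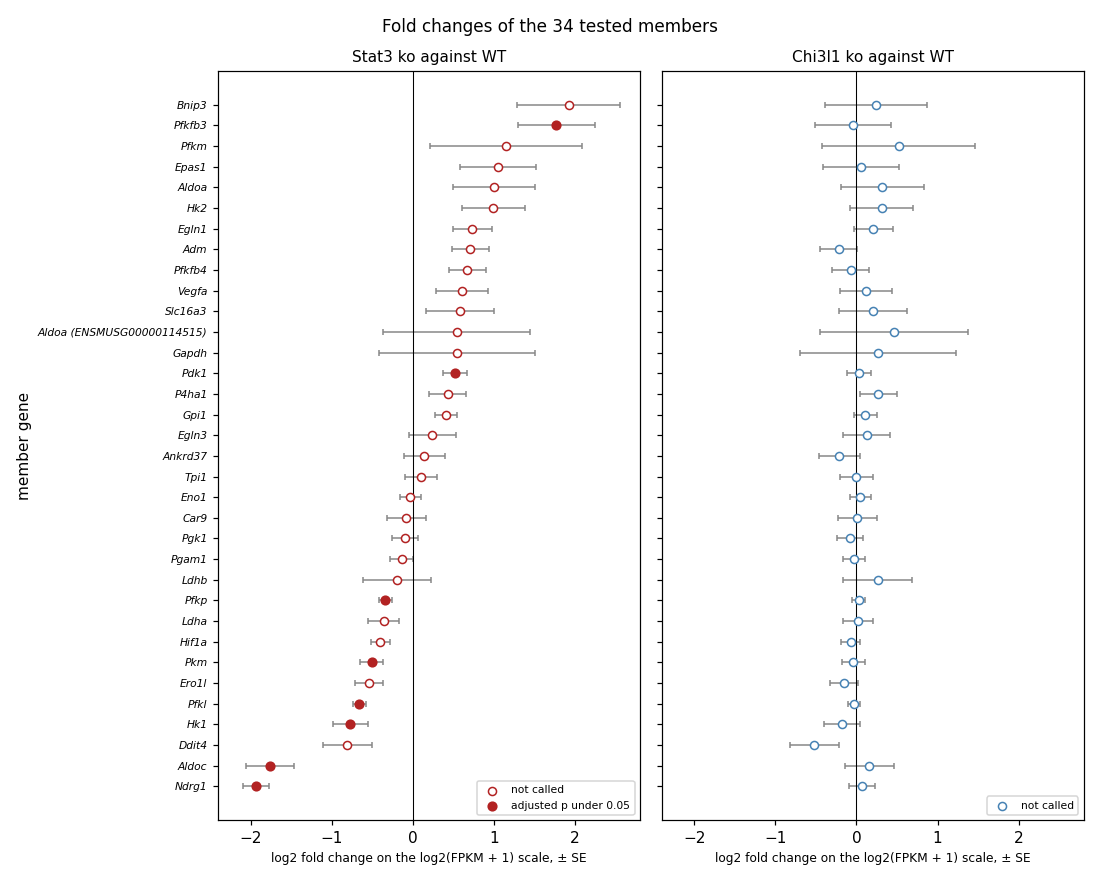
Log2 fold change ± SE on the log2(FPKM + 1) scale (horizontal axis) of the 34 tested members, ordered by Stat3 ko against WT (left), with Chi3l1 ko against WT in the same order (right). Filled points passed adjusted p under 0.05: 8 on the left, from −1.93 for Ndrg1 to 1.77 for Pfkfb3, and 0 on the right, where values ran from −0.52 to 0.52.

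The muscle isoforms were highest in the libraries with the most skeletal muscle marker RNA. Pfkm, the muscle type of phosphofructokinase, stood at 11.1, 43, 24.1 and 9.98 FPKM in WT, at 20, 180, 9.55 and 88.3 in Stat3 ko, and at 12, 117, 14.6 and 24.7 in Chi3l1 ko. The high libraries are those high in skeletal muscle markers, in every genotype. Stat3 ko and WT overlapped, and the log2 fold change of 1.15 ± 0.94 was not called (limma adjusted p = 0.403). With the muscle marker level in the fit it was 0.24 ± 0.31. Summed over the 3 isoforms, phosphofructokinase ranged from 57 FPKM in Stat3 ko 3 to 225 in Stat3 ko 2, and Pfkm made up 16.8% and 80% of these sums. In the libraries low in muscle markers Pfkl led, with 73.7% of the sum in WT 1, 72.6% in Chi3l1 ko 1 and 67.5% in Stat3 ko 3.

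Aldoa, the aldolase of muscle and most other tissues, stood at 273, 514, 352 and 302 FPKM in WT, at 791, 1404, 291 and 740 in Stat3 ko, and at 275, 1140, 336 and 346 in Chi3l1 ko. Stat3 ko 2, Stat3 ko 4 and Chi3l1 ko 2 were high in muscle markers, whereas Stat3 ko 1, at 791 FPKM, was high in adipocyte markers. The Stat3 ko mean of 807 FPKM was 2.24 times the WT mean of 360, with an SE of 0.51 on the log2 scale, and was not called (limma adjusted p = 0.189). The authors' deposited table lists Aldoa at a log2 fold change of 1.15 with an adjusted p of 0.0479. Aldoa is not alone there. Bnip3 (authors' adjusted p = 0.00104), Hk2 (0.00738), Hif1a (0.016), Pfkfb4 (0.0193) and Egln1 (0.0259) are also listed under 0.05. So are Epas1 (0.0337), Gpi1 (0.0388), Ero1l (0.0442) and Eno2 (0.0136), the last not tested here. Limma called none of these in the main fit. Hk1, called here, is listed at 0.051. Aldoc made up 22.5% to 29.1% of the summed aldolases in WT, only 1.81% to 12.8% in Stat3 ko, and 8.99% to 35.4% in the Chi3l1 ko libraries, with its lowest Chi3l1 ko share in Chi3l1 ko 2. The second gene listed as Aldoa (ENSMUSG00000114515, chromosome 7, 126800790 to 126809108) stood at 0.477 to 21.1 FPKM and was highest in the same muscle-rich libraries.

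**Figure D3:**
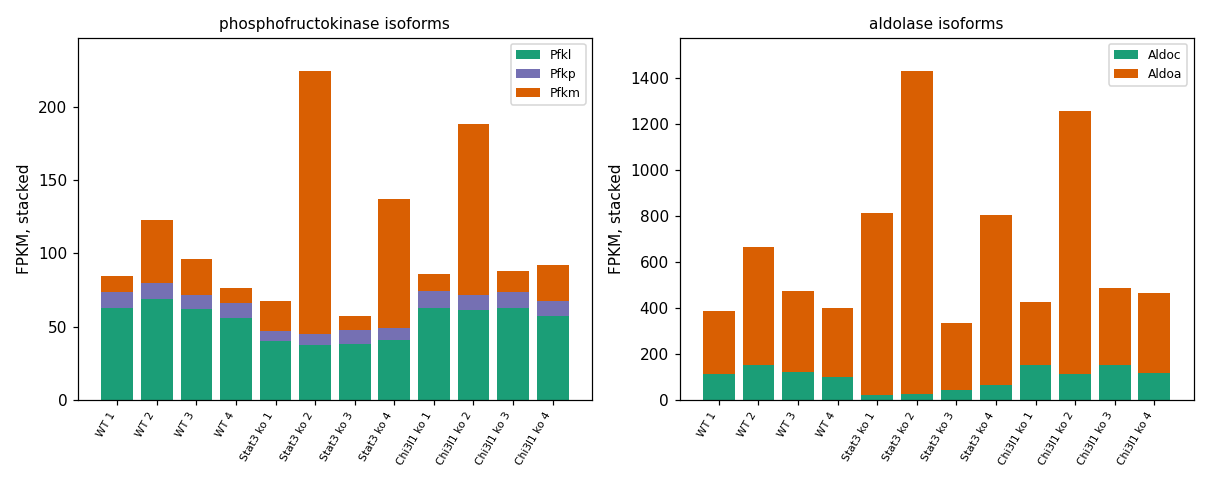
FPKM of the phosphofructokinase isoforms (left) and of 2 aldolase isoforms (right), stacked per library, with the vertical axis from 0. The Pfkl part is 37.1 to 40.9 FPKM in the 4 Stat3 ko libraries and 56.2 to 69.2 elsewhere, while the Pfkm and Aldoa parts are tallest in Stat3 ko 2 and Chi3l1 ko 2.

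Most remaining enzymes of lower glycolysis were abundant and were not called. Tpi1 (triose phosphate isomerase) ranged from 112 to 218 FPKM, Pgk1 (phosphoglycerate kinase) from 121 to 187, Pgam1 (phosphoglycerate mutase) from 78.4 to 122 and Eno1 (enolase) from 119 to 179 over the 12 libraries. In Stat3 ko against WT their log2 fold changes were 0.10 ± 0.20, −0.10 ± 0.16, −0.14 ± 0.14 and −0.03 ± 0.13, with limma adjusted p from 0.501 to 0.897. Gpi1 (glucose phosphate isomerase) stood at 40.1 to 45.3 FPKM in WT and 48.9 to 67.8 in Stat3 ko without overlap. Its 0.41 ± 0.14 was not called by limma (adjusted p = 0.0671), but DESeq2 called Gpi1. With Chi3l1 ko 2, Stat3 ko 3 or Stat3 ko 4 left out limma called it too (adjusted p 0.0374 to 0.0497). Near-identical copies limit some of these: 53.9% of the 50-base words of Pgk1, 36.2% of Pgam1 and 26% of Eno1 occur in other annotated genes.

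Gapdh, the dehydrogenase often used as a reference gene, had 2 ranges of values that cut across genotypes, with Chi3l1 ko 1 between them. It stood at 25, 3.26, 3.22 and 3.34 FPKM in WT, at 29.6, 27.9, 2.04 and 2.32 in Stat3 ko, and at 9.31, 2.92, 24.9 and 3.05 in Chi3l1 ko. In 7 of the 12 libraries it was under 4 FPKM, far below Tpi1 and Pgk1, the enzymes just before and after it. Its log2 fold change in Stat3 ko was 0.54 ± 0.96 (limma adjusted p = 0.719). Of its 50-base words 25.1% occur in other genes, 223 of them, with 24.6% in Gm7336 alone. Part of its reads may thus not be assignable to Gapdh alone, and what sets the libraries apart was not tested.

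**Figure D4:**
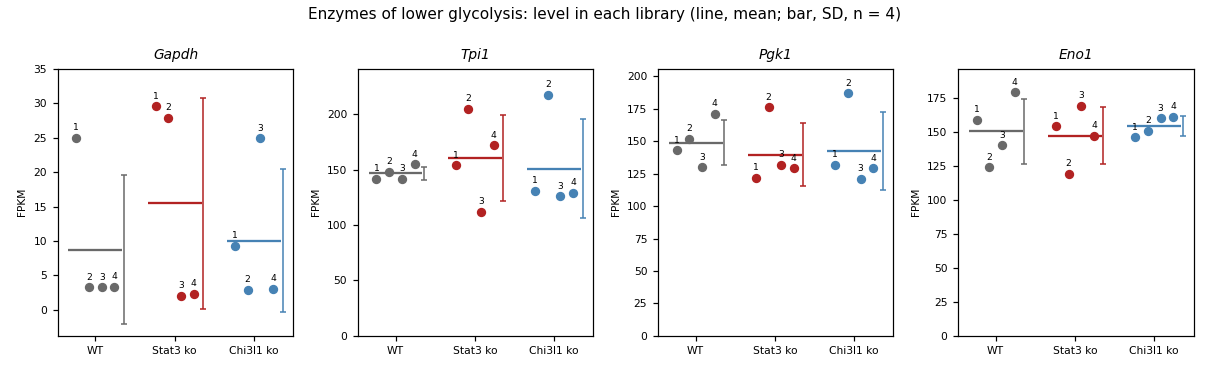
FPKM of 4 enzymes of lower glycolysis in each library (points with library number, lines for group means, bars for SD of 4). Gapdh lies between 2.04 and 29.6 FPKM and is high in WT 1, Stat3 ko 1, Stat3 ko 2 and Chi3l1 ko 3, while Tpi1, Pgk1 and Eno1 lie between 112 and 218 in all 12.

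The genes that handle pyruvate and lactate were mixed. Ldha, which makes lactate, stood at 337 to 424 FPKM in WT and 199 to 378 in Stat3 ko, with a log2 fold change of −0.36 ± 0.19 that was not called (limma adjusted p = 0.194). Ldhb, the form that favours pyruvate, stood at 78.6, 79.8, 81 and 62.7 FPKM in WT and at 171, 82.2, 38.9 and 32.4 in Stat3 ko, so the Stat3 ko libraries lay on both sides of WT. Slc16a3, a lactate exporter, was between 0.993 and 7.31 FPKM and highest in Stat3 ko 2, Stat3 ko 4 and Chi3l1 ko 2, the 3 libraries with the most muscle marker RNA.

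By limma 0 of the 4 genes for HIF subunits and hydroxylases were called in Stat3 ko against WT, while edgeR called Egln1, and DESeq2 called Egln1, Epas1 and Hif1a (adjusted p = 0.00931, 0.0125 and 0.0252). Of all 13643 tested genes limma called 1911, edgeR 2359 and DESeq2 3633. Hif1a, the main alpha subunit, stood at 23.5, 20.2, 21.3 and 24 FPKM in WT and at 16.7, 15.3, 19.4 and 15.1 in Stat3 ko, without overlap, and its log2 fold change of −0.40 ± 0.12 was just outside the threshold (limma adjusted p = 0.0515). Epas1, the second alpha subunit and abundant in endothelium, stood at 9.87, 10.8, 12 and 9.41 FPKM in WT and at 70.1, 24.8, 14 and 10.8 in Stat3 ko. Its value of 1.05 ± 0.47 was not called (adjusted p = 0.137) and turned to −0.34 ± 0.25 with the adipocyte level in the fit. The 15 blood endothelial markers summed to 78.8 to 117 FPKM in WT and 121 to 340 in Stat3 ko, with 340 in Stat3 ko 1. The hydroxylase Egln1 stood at 14.7 to 16.5 FPKM in WT and 18 to 39.1 in Stat3 ko (0.73 ± 0.24, adjusted p = 0.064). Egln3, a HIF target itself, stood at 17.6 to 23.2 FPKM in WT and at 11, 23.2, 34.2 and 35.6 in Stat3 ko, and was called without Stat3 ko 1 (0.58, adjusted p = 0.0291).

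Of the 9 hypoxia-induced genes limma called 1, Ndrg1, while DESeq2 also called Bnip3, Adm and Ero1l (adjusted p = 0.00052, 0.0211 and 0.0163), the first 2 higher and Ero1l lower. DESeq2 called more genes throughout, 3633 of all 13643 against 1911 by limma. Bnip3, a mitophagy receptor, stood at 6.18, 9.49, 6.77 and 6.44 FPKM in WT, at 121, 35.5, 12.2 and 14.2 in Stat3 ko, and at 4.95, 20.8, 6.11 and 8.29 in Chi3l1 ko. Stat3 ko and WT did not overlap, yet the log2 fold change of 1.92 ± 0.63 was not called (limma adjusted p = 0.0622), and it was 0.03 ± 0.33 with the adipocyte level in the fit. By edgeR on recovered counts Bnip3 was called too (adjusted p = 0.0318), and 47.2% of its 50-base words occur in other genes. Vegfa, the vascular growth factor, stood at 10 to 13.2 FPKM in WT and at 37.4, 22.3, 12.2 and 11.1 in Stat3 ko (0.61 ± 0.32, adjusted p = 0.197). Ddit4, an inhibitor of mTORC1, stood at 67.6 to 89.9 FPKM in WT and at 19.7, 55, 56 and 62.9 in Stat3 ko without overlap (−0.81 ± 0.30, adjusted p = 0.0888). Ero1l, an oxidase of protein folding, stood at 11.8 to 16.3 FPKM in WT and 6.59 to 11.7 in Stat3 ko (−0.54 ± 0.17, adjusted p = 0.0519). The peptide hormone gene Adm had 1.62 to 3.25 FPKM in WT and 2.65 to 6.89 in Stat3 ko (0.71 ± 0.23, adjusted p = 0.0638). P4ha1, a collagen hydroxylase, had 4.24 to 13.2 FPKM over all libraries. The carbonic anhydrase gene Car9 had 0.443 to 2.16 and Ankrd37 0.323 to 2.37, and these 3 had log2 fold changes of 0.43 ± 0.23, −0.08 ± 0.24 and 0.14 ± 0.25.

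**Figure D5:**
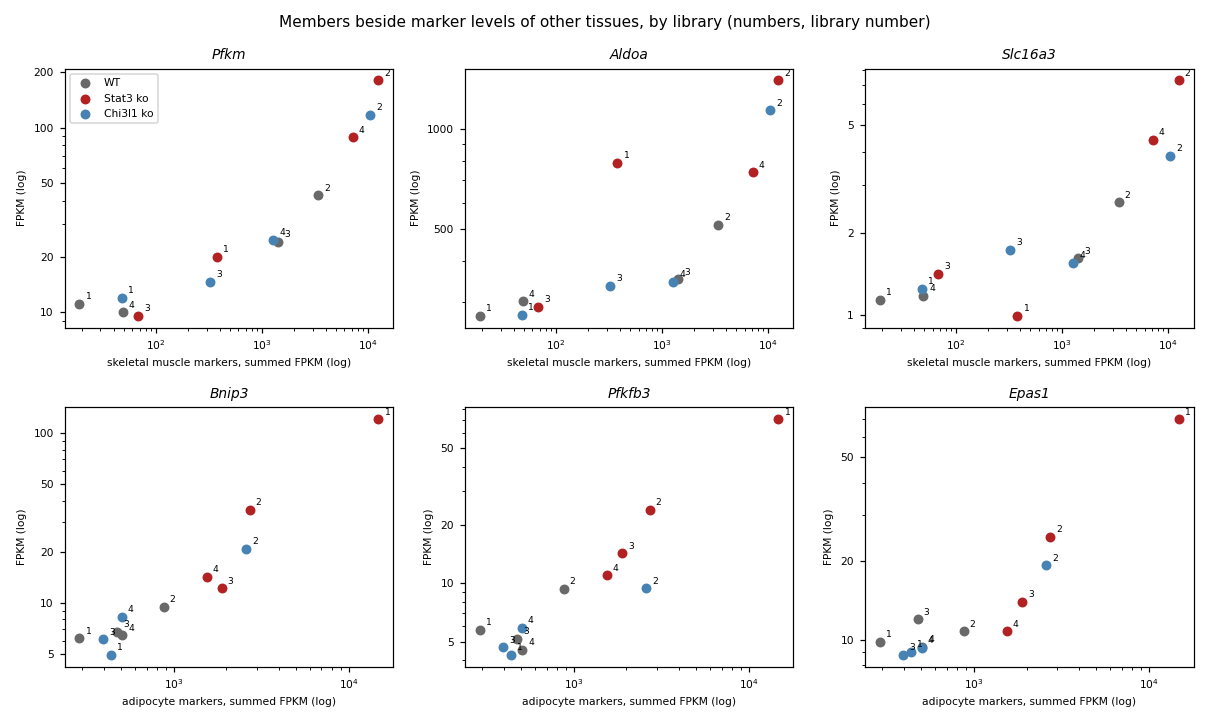
Level in FPKM (vertical, log axis) of 6 members against the summed FPKM of skeletal muscle markers (upper row, log axis) or adipocyte markers (lower row, log axis) in 12 libraries, coloured by genotype. Pfkm is at 180 and 117 FPKM in the 2 libraries with the highest muscle level, Stat3 ko 2 and Chi3l1 ko 2, and Bnip3, Pfkfb3 and Epas1 are highest in Stat3 ko 1, which has an adipocyte level of 14808 FPKM.

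Chi3l1 ko 2 had an adipocyte level of 2588 FPKM, close to the 2714 of Stat3 ko 2, and a muscle level of 10497 against 12531, while its Stat3 level was 46.7 FPKM. In it Ndrg1 stood at 44.9 FPKM, Pfkl at 61.5 and Aldoc at 113, each within the WT range, against 9.23, 37.1 and 25.8 in Stat3 ko 2. Its Hk2 level of 21.4 FPKM, Epas1 level of 19.3 and Aldoa level of 1140 were near those of Stat3 ko 2, at 22.8, 24.8 and 1404. The 2 libraries differed in other markers: luminal markers summed to 2456 FPKM in Chi3l1 ko 2 and 1509 in Stat3 ko 2, T cell markers to 57.1 and 720, and B and plasma cell markers to 84.3 and 2928. They are set side by side with no test. When the 6 libraries highest in muscle markers were left out, which leaves 2 per group, 0 members were called, and 44 of all genes were. Ndrg1 then had a log2 fold change of −1.71 ± 0.30 (limma adjusted p = 0.101) and Pfkl of −0.58 ± 0.14 (0.146). With the adipocyte marker level in the fit, Ndrg1 and Pfkl were the members called against WT. Since every Stat3 ko library had more adipocyte marker RNA than any WT library, the parts of tissue make-up and of genotype in the members' differences cannot be told apart here.

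Over all members, 15 of 34 (44.1%) had no overlap between Stat3 ko and WT, 6 higher and 9 lower, against 21.3% of all tested genes. Any gene without overlap must give p = 0.0286 in the exact two-sided permutation test, the smallest that 4 against 4 libraries allow. For these 15 that test therefore adds nothing to the lack of overlap. Leaving out Stat3 ko 4, the library lowest in adipocyte markers among the Stat3 ko, raised the count of called members from 8 to 15, with 7 higher and 8 lower. Without Stat3 ko 3, 13 members were called, and without Chi3l1 ko 2, 12 were. Fewer were called without WT 1 (3 members), WT 3 or WT 4 (4 each), or WT 2, Stat3 ko 2 or Chi3l1 ko 1 (5 each). Calls over all genes, 1911 in the main fit, shifted as well, though little without Chi3l1 ko 2. Without Stat3 ko 4, Stat3 ko 3 and Chi3l1 ko 2 they were 3218, 2373 and 1954. They were 569, 925 and 765 without WT 1, WT 3 and WT 4. Without WT 2, Stat3 ko 2 and Chi3l1 ko 1 they were 1294, 1087 and 1363. Aldoc, Ndrg1 and Pfkl were called in all 12 of these fits.

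Chi3l1 ko was compared with WT to ask whether the same genes differ in the Chi3l1 knockout. By limma 0 of the 34 members were called, higher or lower, and 0 by edgeR, by DESeq2 and in every alternative fit, against 0% of all genes called higher and 0.00733% called lower, the latter being Chil1 itself. At an unadjusted p under 0.05 there were 0 members and 222 genes in all. The members' median log2 fold change was 0.04, against 0.00 over all genes. Aldoc, Ndrg1, Pfkl and Pfkp differed by 0.16 ± 0.30, 0.07 ± 0.16, −0.03 ± 0.08 and 0.03 ± 0.08.

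The lowest member value was that of Ddit4, which stood at 85.6, 89.9, 67.6 and 73.8 FPKM in WT and at 69.7, 52.8, 49.8 and 48.6 in Chi3l1 ko. The groups overlapped in 1 pair of libraries, and the log2 fold change was −0.52 ± 0.30 (limma adjusted p = 1). The authors' deposited table lists Ddit4 at −0.513 with an adjusted p of 0.148. Hk1 was the member without overlap, 1 of 34 (2.94%) against 2.48% of all genes, at 37.3 to 45.6 FPKM in Chi3l1 ko and 45.7 to 51.7 in WT. The highest value, 0.52 ± 0.94 for Pfkm, came with the muscle-rich library Chi3l1 ko 2, and it was −0.17 ± 0.89 without that library. In simulated data with the same design 40.3% of 2-fold changes and 2.99% of 1.5-fold changes were recovered, so changes of this size in single members could be missed.

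The 2 knockouts were compared directly, with the same Stat3 ko libraries as above, so this is not an independent repeat. Of the 34 members 5 were lower in Stat3 ko (14.7%) and 2 higher (5.88%), against 8% and 5.19% of all genes, and 7 (20.6%) did not overlap, against 17%. The shares higher and without overlap were near the background. Ndrg1 fell by 2.00 ± 0.16 (limma adjusted p = 6.7e-05), Aldoc by 1.91 ± 0.30 (0.00361), Pfkl by 0.63 ± 0.08 (0.000941), Pfkp by 0.37 ± 0.08 (0.0136) and Pkm by 0.47 ± 0.14 (0.0469). Pfkfb3 rose by 1.81 ± 0.47 (0.0313) and Adm, at 1.37 to 1.93 FPKM in Chi3l1 ko, by 0.93 ± 0.23 (0.0273). Of the 7, 6 were also called against WT. Leaving out a library ended the Pkm call in 10 of 12 cases, all but Stat3 ko 2 and Stat3 ko 4 (0.0635 to 0.102). The Pfkfb3 and Adm calls ended without Stat3 ko 2, Chi3l1 ko 1, Chi3l1 ko 3 or Chi3l1 ko 4 (0.0639 to 0.0933), and that of Pfkp without Chi3l1 ko 1 (0.0525). With the adipocyte level in the fit Aldoc, Ndrg1 and Pfkl were called, and Pfkp, Pkm, Pfkfb3 and Adm were not (adjusted p = 0.133, 0.276, 0.21 and 0.277).

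Genes around the members were counted in 8 lists. Of 8 tested glucose and lactate transporters 1 fell in Stat3 ko against WT: Slc2a1, the main glucose importer GLUT1, stood at 47.8, 45.3, 42.7 and 33.5 FPKM in WT and at 9.75, 19.4, 23.4 and 28.4 in Stat3 ko. The groups did not overlap, and Slc2a1 fell by 1.11 ± 0.26 (limma adjusted p = 0.0202), but by 0.43 ± 0.21 with the adipocyte level in the fit (0.408). Of 15 tested HIF pathway components 1 fell: Cited2, a competitor of HIF for its coactivator, stood at 90.1, 85.3, 78.9 and 94.8 FPKM in WT, at 25.4, 20.5, 27.3 and 30.2 in Stat3 ko, and at 75.2, 58.2, 87.3 and 79.6 in Chi3l1 ko. Its log2 fold change of −1.73 ± 0.14 (adjusted p = 6.6e-05) was called in each of 12 fits with a library left out and, at −1.49 ± 0.17, with the adipocyte level in the fit (0.0019). The Stat3 ko libraries were the lowest 4 of the 12.

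Of 45 other tested hypoxia-induced genes 0 rose and 4 fell, Slc2a1 among them. The share that fell, 8.89%, was near the 8.39% of all genes. Errfi1, an inhibitor of EGF receptors, fell by 0.85 ± 0.22, Car12, a carbonic anhydrase, by 1.33 ± 0.35 and Tfrc, the transferrin receptor, by 0.86 ± 0.25 (limma adjusted p = 0.0304, 0.031 and 0.0403), and none of these 3 was called with the adipocyte level in the fit. Errfi1 stood at 29.2 to 51.5 FPKM in Chi3l1 ko, also under the 55.7 to 63.5 of WT, though not called there. Between the 2 knockouts it differed by −0.28 ± 0.22 (limma adjusted p = 0.412). Against Chi3l1 ko the same list had 3 falls and 1 rise: Slc2a1, Car12 and Plod2, a collagen-modifying enzyme (−0.64 ± 0.13, adjusted p = 0.0118), fell and Igfbp3 rose (0.86 ± 0.25, 0.0435). With the adipocyte level in the fit 0 of these 4 were called (adjusted p = 0.465 for Slc2a1, 0.401 for Car12, 0.0669 for Plod2 and 0.165 for Igfbp3). Of the 12 fits that left a library out, 3 called Slc2a1, 4 called Car12 and 5 called Igfbp3, while Plod2 was called in all 12. The list medians were 0.02 and 0.06.

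The other lists held between 0 and 5 calls each in Stat3 ko against WT. Of 14 tested glycolysis enzymes and isoforms outside the members Hk3, a hexokinase of myeloid cells, rose by 0.64 ± 0.18 (limma adjusted p = 0.0394). The 16 macrophage markers, of which 15 are in the table, summed to 893 to 1600 FPKM in WT and 1426 to 2317 in Stat3 ko, and their part in the Hk3 value was not tested. H6pd of the pentose phosphate pathway (2.13 ± 0.53, adjusted p = 0.0269) was the call among 8 genes tested. Of 14 gluconeogenesis and glycogen genes 2 rose (14.3%, against 5.61% of all genes), Pck1 (4.53 ± 1.11, 0.0248) and Gyg (1.14 ± 0.33, 0.0429). Pck1, which fat cells use for glycerol synthesis, stood at 1103 FPKM in Stat3 ko 1 against 2.53 to 7.44 in WT. None of these 4 was called with the adipocyte level in the fit. The pyruvate dehydrogenase list had 0 calls among 10, with a median of 0.70. Of 15 MYC and mTORC1 related genes 2 rose and 3 fell: Mycl (1.14 ± 0.30) and Mlxipl (2.02 ± 0.54) rose, and Mlxip (−0.50 ± 0.15), Arrdc4 (−0.55 ± 0.15) and Mlx (−0.31 ± 0.09), a partner of the glucose-sensing factor that Mlxipl encodes, fell (limma adjusted p 0.0315 to 0.0484). These shares, 13.3% and 20%, were above the 5.61% and 8.39% of all genes, but 0 of these 5 were called with the adipocyte level in the fit (0.506 to 0.746). Of the 12 fits that left a library out, 2 called Mlx, 2 called Mlxip and 3 called Arrdc4. In Chi3l1 ko against WT all 8 lists had 0 calls.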

How the data were processed

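RNA-seq of 12 mouse mammary libraries, 4 per genotype, was analysed from the authors' processed tables. Per the submitters' processing notes Trimmomatic, STAR, HTSeq, edgeR and limma were used with builds GRCm38 and mm10, versions not given. The authors deposited FPKM for all genes and libraries, and comparison tables with raw counts per gene, log2 fold changes and p-values for genes with p under 0.05. Reads for the whole table were recovered from FPKM and gene length: of 55832 deposited counts 0 differed. Totals ran from 16217143 to 22607123 counts. Unused per-sample columns numbered 0.

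FPKM was kept as the unit of the main test. For 13643 genes, those reaching 1 FPKM in 4 libraries or more, log2(FPKM + 1) was fitted to 3 group means with limma 3.58.1 (trend, R 4.3.3), two-sided, adjusted by Benjamini-Hochberg over all genes, called under 0.05. Fold changes are on that scale, which understates changes of low genes, and SE are limma's. Single genes had an exact permutation test on FPKM. edgeR 4.0.16 (quasi-likelihood) and DESeq2 1.42.0 on recovered counts were alternatives. So were other scalings, filters and pseudocounts, array weights and leaving out libraries. Fits with marker levels were further alternatives, chosen after seeing the data. In these fits the level is the mean log2(FPKM + 1) over the markers of a list, whereas marker levels printed in FPKM are sums. On simulated data in the design of Stat3 ko against WT, with 13643 genes, limma recovered 2.99% of 1.5-fold, 37.3% of 2-fold and 75.8% of 4-fold changes. Only 67, 67 and 66 genes were changed in the simulation, against 1911 called in the data. The adjusted threshold therefore differed, and these shares may not carry over.

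The members and lists were chosen with earlier results of these data known. All members are named, and so is each listed gene that was called in a comparison. Shared sequence is the share of 50-base words of a gene's GRCm38 transcripts found in another gene's. Promoters are RefSeq's, and motifs were searched on both strands. Strand of counting is not given in the sources used here, so overlapping genes are uncertain. Python 3.11.15, pandas 2.3.3, numpy 2.4.6 and matplotlib 3.10.9 were used.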

Additional observations from a re-analysis of the deposited data

Results flagged for a closer look

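With 35 genes in 3 groups of 4 libraries, 105 groups were examined, and chance alone marks about 1 in 20 such groups. A single library stood apart from the other 3 of its group, by a gap above Dixon's 95% critical value for 4 values, in 14 cases over 14 genes.

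Chi3l1 ko 2 was the high library in 9 of the 14. Its level was 1140 FPKM for Aldoa, 412 for Pkm, 218 for Tpi1, 187 for Pgk1 and 117 for Pfkm. It was also high at 19.6 FPKM for the second Aldoa gene (ENSMUSG00000114515), 19.3 for Epas1, 21.4 for Hk2 and 2.31 for Pfkfb4. This library had the highest skeletal muscle (10497 FPKM) and adipocyte (2588 FPKM) marker sums of its group and 2.22% mitochondrial counts. The part of these in the 9 values was not tested, beyond the fits with marker levels.

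In Chi3l1 ko, Chi3l1 ko 4 was high for Hif1a at 27 FPKM. In Stat3 ko, Stat3 ko 1 was high for P4ha1 at 13.2 FPKM. In WT, WT 1 was high for Gapdh at 25 FPKM, WT 3 was high for Adm at 3.25 FPKM, and WT 4 was low for Ldhb at 62.7 FPKM.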

How the results depend on the processing

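No paired analysis was possible because the labels give no replicate numbers shared between groups. Against WT, the count of members lower in Stat3 ko, 6, was 3 with only the 2 groups compared, 0 without the 6 muscle-rich libraries, 2 with the adipocyte and 3 with the luminal level in the fit, and 3 to 8 with a library left out. The count higher, 2, was 0 without a filter, with only the 2 groups, without the 6 libraries and with any of the 3 marker levels, 1 with quantile normalization, 4 with edgeR, 9 with DESeq2, and 0 to 7 with a library left out. Against Chi3l1 ko, the 5 lower were 3 with only the 2 groups or the adipocyte level, 0 without the 6 libraries, and 3 to 6 with a library left out. The 2 higher were 0 without a filter, with only the 2 groups, without the 6 libraries and with the adipocyte or luminal level, 1 with a mean of at least 5 FPKM, 5 without the 3 libraries over 2% mitochondrial, 6 with DESeq2, and 0 to 6 with a library left out. The cause of these shifts was not tested.

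All genes called in Stat3 ko against WT were 1149 without a filter, 506 with only the 2 groups, 1214 without the 3 mitochondrial-rich libraries, 3633 with DESeq2, 44 without the 6 libraries, and 964, 147 and 584 with the muscle, adipocyte and luminal level. Leaving out a library gave 569 to 3218. Against Chi3l1 ko they were 1119, 505, 3261 with DESeq2, 71 without the 6 libraries, and 332 and 944 with the adipocyte and luminal level, and leaving out a library gave 608 to 2853. Chi3l1 ko against WT had 1 call, 2 with array weights and 8 with DESeq2. No called member changed sign. Among all alternatives of single members, 108 lost a call and 60 gained one. With 4 libraries per group and low counts for Ankrd37 and Car9, small changes were not detectable.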
